A study of Macaca fascicularis with 64 samples.

Results

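This account concerns enzymes that make glucose and break down amino acids in newborn SIRT6-mutant and wild-type cynomolgus monkeys (Macaca fascicularis). The genes were chosen by name, with earlier results of these data known: G6PC, PCK1, FBP1, SDS, TAT, HPD, GNMT, SHMT1, GLS2 and GOT1. Of these 10 names, 9 are listed by that name among the 28141 genes of the deposited tables. FBP1 is listed only under the identifier LOC102141498, which a RefSeq gene table pairs with FBP1, so its values are given separately and it is not counted among the 9.

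RNA was sequenced in bulk from 7 newborn tissues: liver, kidney, muscle, heart, lung, thymus and brain. The newborn groups were SIRT6 mutant (titled KO in the labels, and SIRT6-/- in the series' design text) and wild type (WT), with animals KO2 and KO3 against WT2 and WT3 and 2 libraries of each tissue from each animal, 56 libraries in all. A further 8 libraries came from wild-type fetal brain and muscle at gestation months 4 and 2, with 2 libraries for each tissue and month. The labels do not say which mutation each KO animal carries or whether the animals are related, and do not say that fetal libraries came from separate fetuses.

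Gluconeogenesis is the making of glucose from lactate, glycerol and the carbon of amino acids, and in mammals liver and kidney cortex are the organs that release this glucose. PCK1, the cytosolic phosphoenolpyruvate carboxykinase, commits oxaloacetate to the pathway, FBP1 removes a phosphate from fructose bisphosphate, and G6PC, the catalytic subunit of glucose-6-phosphatase, frees glucose. The amino acid enzymes feed the pathway with carbon or handle the nitrogen that is released. SIRT6 is an NAD-dependent protein deacylase of chromatin, and in mice it has been reported to restrain glucose output of the liver through the coactivator PGC-1alpha, the product of PPARGC1A.

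Levels are FPKM, in which fragments are divided by gene length and by the number mapped in the library. A change is the difference between KO and WT animals on the log2(FPKM + 1) scale, which understates the change of genes of low level. Because the median gene itself moved by more than 0.1 in several comparisons (by -0.19 in liver and by -0.04 in kidney, KO minus WT), each change of a gene is printed relative to the median of all genes tested. Its standard error (SE) and adjusted p are limma's, for the change before that subtraction, with Benjamini-Hochberg adjustment over all genes tested. A gene passed the test at an adjusted p under 0.05. With 2 KO and 2 WT animals, an exact permutation test of a single gene could not reach a two-sided p below 0.33, so every p here rests on limma's sharing of the spread across genes. Groups that do not overlap are thus weak evidence, and the share of all genes without overlap was not counted.

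SIRT6 itself did not separate the genotypes at the level of its RNA. In liver SIRT6 had 3.43 and 2.71 FPKM in KO2 and 7.58 and 6.16 FPKM in KO3, against 5.44 and 6.91 FPKM in WT2 and 8.96 and 8.29 FPKM in WT3, and the groups overlapped. Its relative change was -0.37 in liver (adjusted p = 0.647, limma) and -0.42 in kidney (adjusted p = 0.545, limma). Whether the mutant alleles lower this RNA is not given, so the genotype labels cannot be checked from it. The liver label was checked with ALB, the hepatocyte gene for serum albumin. ALB lay between 15842 and 33175 FPKM in the animals' livers and at most at 42.2 FPKM in any library of the other 6 tissues. It cannot tell those 6 tissues from one another.

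Liver was the tissue in which the most of these enzymes passed as lower in KO animals, but no other tissue had all 9 tested. In kidney 6 were tested. Of the 9 listed enzymes, 8 fell and none rose, and PCK1 missed the threshold. Across all 12207 genes tested in liver, 0.836% passed the test as lower. The enzymes were chosen with earlier results of these data known, so this share is not an independent yardstick. The 9 enzymes had a median change of -3.16, before subtraction, beside -0.19 for all genes. KO levels of 8 of the 9 averaged between 2.51% and 18.8% of the WT level, and SDS was near 0 in both KO animals. In bulk tissue, fewer cells of a type and less RNA per cell cannot be told apart.

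G6PC showed closely matched animals within each genotype. It had 30.5 and 31.4 FPKM in KO2 liver and 28.9 and 28.1 FPKM in KO3 liver, against 278 and 284 FPKM in WT2 and 268 and 264 FPKM in WT3. All 4 KO libraries were far below all 4 WT libraries, with KO at 10.9% of the WT mean. The relative change was -2.97 (SE 0.42, adjusted p = 0.00631, limma).

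PCK1 was the most uneven of the enzymes between animals of a genotype. It had 88.3 and 98.4 FPKM in KO2 liver and 26.7 and 26.9 FPKM in KO3 liver, against 165 and 164 FPKM in WT2 and 606 and 591 FPKM in WT3. The groups did not overlap, but WT2 was closer to KO2 than to WT3. The relative change of -2.43 (SE 0.68) did not pass the test (adjusted p = 0.109, limma). Without WT2, whose liver level was the lower of the WT pair, the unsubtracted PCK1 change was -3.55. That larger fall follows from leaving only WT3, the higher WT animal.

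FBP1, read from its LOC identifier, had overlapping groups in liver. It had 360.4 and 341 FPKM in KO2 and 171 and 178 FPKM in KO3, against 191 and 200.3 FPKM in WT2 and 385 and 379 FPKM in WT3. KO2 and WT3 were the high animals, 1 of each genotype. Its relative change was 0.05 (SE 0.48, adjusted p = 0.918, limma), with a 95% interval from -1.02 to 1.12.

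**Figure D1:**
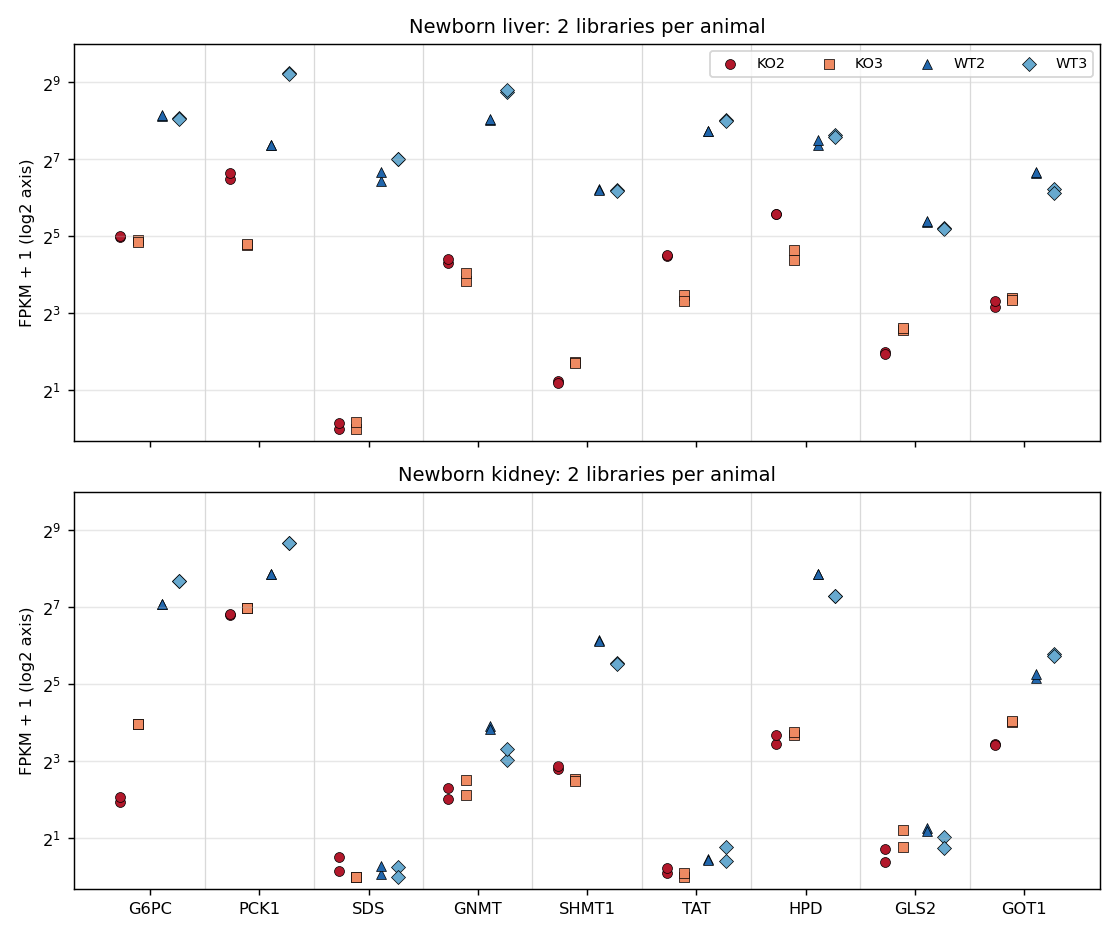
FPKM + 1 on a log2 axis for the 9 listed enzymes in newborn liver (top) and kidney (bottom), with a point for each library, KO animals left of WT animals. In liver KO2 and KO3 lie below WT2 and WT3 for all 9 enzymes, with SDS near 0 in both KO animals. In kidney the KO animals lie lower for G6PC, PCK1, GNMT, SHMT1, HPD and GOT1, while SDS, TAT and GLS2 are low in every animal. The share of all genes that separate in this way was not counted.

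SDS, serine dehydratase, which turns serine into pyruvate and ammonia, had the largest liver change of the 9. Its libraries gave 0 and 0.114 FPKM in KO2 and 0 and 0.128 FPKM in KO3, against 85.2 and 101 FPKM in WT2 and 127 and 128 FPKM in WT3. The gene was near or at 0 in every KO library and passed the level filter only through WT animals. The relative change was -6.50 (SE 0.46, adjusted p = 0.000247, limma), the third lowest of the 12207 genes. A value listed at 0 can be a failed estimate, so no ratio is given.

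SHMT1 and GNMT, which use serine or glycine, also fell in KO livers. SHMT1, the cytosolic serine hydroxymethyltransferase that interconverts serine and glycine, had 1.35 and 1.30 FPKM in KO2 and 2.35 and 2.30 FPKM in KO3, against 73.7 and 72.7 FPKM in WT2 and 72.9 and 71.7 FPKM in WT3. The WT animals were nearly level with each other, and KO stood at 2.51% of their mean. Its relative change was -4.54 (SE 0.46, adjusted p = 0.000933, limma).

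GNMT, glycine N-methyltransferase, which uses up S-adenosylmethionine, had 18.7 and 20.4 FPKM in KO2 and 13.3 and 15.6 FPKM in KO3, against 260.4 and 263 FPKM in WT2 and 433 and 442 FPKM in WT3. Both KO animals were at a small part of the lower WT animal, and the KO mean was 4.86% of the WT mean. The relative change of GNMT was -4.06 (SE 0.46, adjusted p = 0.00194, limma).

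TAT and HPD act in tyrosine breakdown, and both fell in liver. TAT, tyrosine aminotransferase, which starts tyrosine breakdown, had 21.5 and 21.8 FPKM in KO2 and 10.1 and 8.93 FPKM in KO3, against 214 and 214 FPKM in WT2 and 259 and 253 FPKM in WT3. KO2 was higher than KO3, and both were well below the WT animals. TAT changed by -3.74 relative to the median gene (SE 0.49, adjusted p = 0.00474, limma).

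HPD, 4-hydroxyphenylpyruvate dioxygenase, acts on the product of TAT. HPD had 46.8 and 46.6 FPKM in KO2 and 20.1 and 24.1 FPKM in KO3, against 166 and 180.5 FPKM in WT2 and 197 and 189.8 FPKM in WT3. KO2 was again the higher KO animal, and no KO library reached the lowest WT library. Its relative change of -2.28 (SE 0.48, adjusted p = 0.0389, limma) was the smallest of the 8 that passed.

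GLS2, the liver-type glutaminase that frees ammonia from glutamine, had 2.99 and 2.87 FPKM in KO2 and 4.94 and 5.2 FPKM in KO3, against 40.1 and 41.1 FPKM in WT2 and 36.3 and 35.5 FPKM in WT3. KO3 was the higher KO animal here, and the groups were far apart. GLS2 changed by -2.81 relative to the median gene (SE 0.47, adjusted p = 0.0142, limma).

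GOT1, the cytosolic aspartate aminotransferase, had 7.94 and 9.03 FPKM in KO2 and 9.49 and 9.25 FPKM in KO3, against 98.4 and 101 FPKM in WT2 and 73.8 and 68.5 FPKM in WT3. The KO animals were alike and below both WT animals, at 10.5% of the WT mean. The relative change of GOT1 was -2.91 (SE 0.46, adjusted p = 0.0102, limma).

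With 1 animal left out, the remaining animal of its genotype is assumed to vary like the others, and limma's spread comes from the other genotype's pair and from all genes. The number of liver enzymes that passed was then 3 without KO2, 4 without KO3, 9 without WT2 and 8 without WT3, with the change of every enzyme still negative. With no filter on low levels none of the 9 passed, and with quantile normalisation 3 passed.

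Other genes of glucose making and amino acid breakdown were described by list, beside the 0.836% of all liver genes that passed as lower. The other-steps list of gluconeogenesis had 1 of 19 tested genes lower and none higher, with a median of -0.92 before subtraction, beside -0.19 for all genes. The gene that passed was MPC1, a subunit of the mitochondrial pyruvate carrier, with 16 FPKM in KO2 and 22.6 FPKM in KO3, against 77.6 FPKM in WT2 and 171 FPKM in WT3 (relative change -2.35, adjusted p = 0.0433, limma). FBP2 of that list was below the level filter.

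Of the urea cycle list, 2 of 9 genes fell in liver. SLC25A15, the mitochondrial ornithine carrier, had 1.92 FPKM in KO2 and 3.37 FPKM in KO3, against 62.5 FPKM in WT2 and 44.8 FPKM in WT3, a relative change of -3.73 (adjusted p = 0.00399, limma). ARG2, the mitochondrial arginase, changed by -3.32 (adjusted p = 0.0106, limma). The list's median was -2.17 before subtraction.

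None of 12 genes of phenylalanine, tyrosine and tryptophan breakdown beyond TAT and HPD passed in liver by limma, while 5 had an unadjusted p under 0.05 and the median was -0.67. No other tool was run on these values. Among 21 genes of methionine, glycine, serine and histidine breakdown, CTH, cystathionine gamma-lyase, was the single one that fell (relative change -3.15, adjusted p = 0.011, limma), and none rose. Among 17 genes of glutamine, proline, lysine and branched-chain breakdown, PRODH, proline dehydrogenase, and AASS, which starts lysine breakdown, fell by 3.28 and 2.27 relative to the median gene (adjusted p = 0.00924 and 0.0433, limma).

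Among 20 regulators of gluconeogenic genes, whose median was 0.01 before subtraction beside -0.19 for all genes, PPARGC1A alone passed in liver. It had 0.839 FPKM in KO2 and 0.276 FPKM in KO3, against 21.2 FPKM in WT2 and 7.56 FPKM in WT3. Both KO animals were below 1 FPKM and both WT animals above 7 FPKM. The relative change was -2.98 (SE 0.55, adjusted p = 0.0242, limma). HNF4A, a transcription factor of hepatocytes and proximal tubule, had a relative change of -0.82 in liver and did not pass (adjusted p = 0.357, limma).

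Of 12 genes of glucocorticoid and fasting response, 2 fell in liver. CPT1A, the gatekeeper of fatty acid entry into mitochondria, had 4.66 FPKM in KO2 and 8.09 FPKM in KO3, against 129 FPKM in WT2 and 134 FPKM in WT3 (relative change -4.02, adjusted p = 0.00213, limma). ANGPTL4, an inhibitor of lipoprotein lipase, changed by -2.21 (adjusted p = 0.0252, limma).

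ALB did not pass in liver. It had 15842 FPKM in KO2 and 28324 FPKM in KO3, against 33175 FPKM in WT2 and 23857 FPKM in WT3, with overlapping groups and a relative change of -0.22 (adjusted p = 0.552, limma). The 14 hepatocyte markers summed to 59614 FPKM in KO2 and 86441 FPKM in KO3, against 90658 FPKM in WT2 and 95284 FPKM in WT3. Of the 13 tested, 2 fell, CYP2E1 and FGA, while 10 had a negative change and 10 an unadjusted p under 0.05 in limma. Across all genes tested in liver, 0.836% passed as lower. The median was -1.05 before subtraction, beside -0.19 for all genes, and TF was below the filter.

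Blood cell markers differed more, where 0.836% of all genes tested in liver passed as lower. HBZ, the embryonic zeta-globin, had 300.2 FPKM in KO2 and 546 FPKM in KO3 livers, against 7.34 FPKM in WT2 and 2.51 FPKM in WT3, while HBB, the adult beta-globin, had 870.5 FPKM in KO2 and 428 FPKM in KO3, against 4172 FPKM in WT2 and 3186 FPKM in WT3. Of 10 erythroid markers 2 rose (HBZ and AHSP) and 1 fell (HBB), with a median of 2.11 before subtraction and summed levels from 1751 to 2153 FPKM in KO, against 3264 to 4428 FPKM in WT. Of 9 macrophage markers tested 2 fell (CD163 and MARCO), with a median of -3.11 before subtraction and sums of 30.9 FPKM in KO2 and 236 FPKM in KO3, against 970 FPKM in WT2 and 828 FPKM in WT3; CLEC4F was listed at 0 in all 8 libraries. CYP2E1, FGA, AHSP, CD163 and MARCO were named after their values were seen. The part of these cell types in the enzymes' changes was not tested.

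In kidney, 6 of the 9 enzymes were tested, and 4 fell: G6PC, HPD, SHMT1 and GOT1. None rose. Across all 13937 genes tested in kidney, 4.76% passed as lower, a larger background than in liver. The 6 tested enzymes had a median change of -2.45 before subtraction, beside -0.04 for all genes. With quantile normalisation, the share of all called kidney genes that were higher moved to 31.5%, against 17.6% without it.

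G6PC had 2.82 and 3.16 FPKM in KO2 kidney and 14.6 and 14.6 FPKM in KO3 kidney, against 135 and 135 FPKM in WT2 and 206 and 205 FPKM in WT3. The KO animals differed from each other more than in liver, and both were below both WT animals. The relative change of G6PC was -4.37 (SE 0.56, adjusted p = 0.00494, limma), the fifth lowest of all genes tested.

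HPD had 9.96 and 11.7 FPKM in KO2 kidney and 11.8 and 12.6 FPKM in KO3 kidney, against 231 and 231 FPKM in WT2 and 156 and 156 FPKM in WT3. KO stood at 5.95% of WT in kidney and at 18.8% of WT in liver. The kidney change of HPD was -3.89 (SE 0.30, adjusted p = 0.00121, limma).

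SHMT1 had 5.98 and 6.35 FPKM in KO2 kidney and 4.75 and 4.60 FPKM in KO3 kidney, against 70.3 and 68.6 FPKM in WT2 and 45.5 and 45.1 FPKM in WT3. The groups were far apart, and the relative change was -3.12 (SE 0.32, adjusted p = 0.00232, limma).

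GOT1 had 9.95 and 9.76 FPKM in KO2 kidney and 15.3 and 15.3 FPKM in KO3 kidney, against 34.4 and 37.2 FPKM in WT2 and 53.8 and 52.1 FPKM in WT3. All KO libraries were below all WT libraries. The kidney change of GOT1 was -1.70 (SE 0.33, adjusted p = 0.0198, limma), and it did not pass without WT2 or without WT3.

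PCK1 and GNMT missed the threshold in kidney. Their groups did not overlap, a split whose share over all genes was not counted. PCK1 had 109.7 and 112 FPKM in KO2 and 126 and 124 FPKM in KO3, against 232 and 229 FPKM in WT2 and 404 and 402 FPKM in WT3, with a relative change of -1.32 (SE 0.34, adjusted p = 0.0516, limma). GNMT had 3.05 and 3.92 FPKM in KO2 and 4.69 and 3.36 FPKM in KO3, against 14.1 and 13.3 FPKM in WT2 and 7.11 and 9.01 FPKM in WT3, with a relative change of -1.25 (SE 0.34, adjusted p = 0.0626, limma). PCK1 passed when unaveraged libraries were fitted as correlated within an animal.

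SDS, TAT and GLS2 were too low in kidney to be tested. SDS was at most 0.265 FPKM in any animal's kidney, TAT at most 0.505 FPKM and GLS2 at most 1.34 FPKM, each a mean of 2 libraries. SDS and GLS2 overlapped between genotypes, and TAT was below 1 FPKM in every kidney.

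FBP1 separated the genotypes in kidney. It had 91.9 and 92.9 FPKM in KO2 and 78.5 and 76.5 FPKM in KO3, against 239 and 239.8 FPKM in WT2 and 301 and 298 FPKM in WT3. All KO libraries were below all WT libraries, and the relative change of -1.61 (SE 0.29) passed (adjusted p = 0.0155, limma). The FBP1 change in liver minus that in kidney, 1.62 relative to the median gene, did not pass (adjusted p = 0.158, limma).

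Of 18 other gluconeogenic genes tested in kidney, 10 fell and none rose, with a median of -1.27 before subtraction, beside the 4.76% of all kidney genes that passed as lower. PCK2, the mitochondrial phosphoenolpyruvate carboxykinase, had 12.2 FPKM in KO2 and 20.4 FPKM in KO3, against 194 FPKM in WT2 and 167 FPKM in WT3 (relative change -3.39, adjusted p = 0.00162, limma). GPD1, which links glycerol to the pathway, changed by -3.31, PC, pyruvate carboxylase, by -2.21, and GPT, alanine aminotransferase, by -1.53, each past the threshold in limma.

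Genes of amino acid breakdown passed in kidney as well, nearly all as lower. Of 12 genes of phenylalanine, tyrosine and tryptophan breakdown, 5 fell and none rose, among them KMO (relative change -2.42), which acts on kynurenine, HGD (-1.96) and FAH (-1.59), the steps of tyrosine breakdown after HPD, and ACMSD (-2.42), a branch enzyme of tryptophan breakdown. Of 18 genes of methionine, glycine, serine and histidine breakdown, 6 fell and 1 rose. AGXT, alanine-glyoxylate aminotransferase, had 7.86 FPKM in KO2 and 3.87 FPKM in KO3, against 93.7 FPKM in WT2 and 163 FPKM in WT3, the largest change of this list (relative change -4.21, adjusted p = 0.00159, limma). The gene that rose was CBS, cystathionine beta-synthase (relative change 1.64, adjusted p = 0.0199, limma), named after its value was seen.

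Of 17 genes of glutamine, proline, lysine and branched-chain breakdown, 5 fell and none rose in kidney, led by ALDH4A1 (relative change -2.09), which completes the conversion of proline to glutamate. Of 5 urea cycle genes tested, ASS1 (-2.73), argininosuccinate synthase, and ARG2 (-2.69) fell. Both ASS1 and ARG2 act in kidney arginine metabolism. CPS1, OTC, ARG1 and SLC25A15 were below the level filter there.

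Of 19 regulators tested in kidney, 2 fell, PPARGC1A and HNF4A, and none rose, where 4.76% of all genes passed as lower. The list's median was -0.23 before subtraction, beside -0.04 for all genes. PPARGC1A had 2.90 FPKM in KO2 and 5.46 FPKM in KO3, against 22.6 FPKM in WT2 and 15.6 FPKM in WT3 (relative change -1.94, adjusted p = 0.0166, limma). HNF4A had 4.68 FPKM in KO2 and 16.7 FPKM in KO3, against 36.8 FPKM in WT2 and 43.7 FPKM in WT3 (relative change -1.99, adjusted p = 0.0439, limma). Of 12 glucocorticoid and fasting genes, 8 fell, among them PDK4, the kinase that shuts pyruvate dehydrogenase (relative change -2.31), KLF9 (-2.42), CPT1A (-2.25) and SGK1 (-2.42).

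Kidney cell type markers moved too, where 4.76% of all genes tested in kidney passed as lower. Of 15 proximal tubule markers, the segment of kidney that makes glucose, 11 fell, with a median of -2.06 before subtraction and sums of 474 FPKM in KO2 and 494 FPKM in KO3, against 2479 FPKM in WT2 and 2525 FPKM in WT3. LRP2, the megalin receptor of that segment, did not pass, with 38.2 FPKM in KO2 and 47.8 FPKM in KO3, against 38.8 FPKM in WT2 and 69.8 FPKM in WT3 (relative change -0.24, adjusted p = 0.694, limma). Of 10 distal nephron markers 5 fell, with sums of 414 and 693 FPKM in the KO animals, against 3858 and 3718 FPKM in the WT animals. Of 8 podocyte and nephron progenitor markers tested, 2 rose and none fell, with a median of 0.96 before subtraction. Among all called kidney genes, 17.6% were higher. LEF1 was among the markers that rose and was named after its value was seen. The part of these cell types in the enzymes' kidney changes was not tested.

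**Figure D2:**
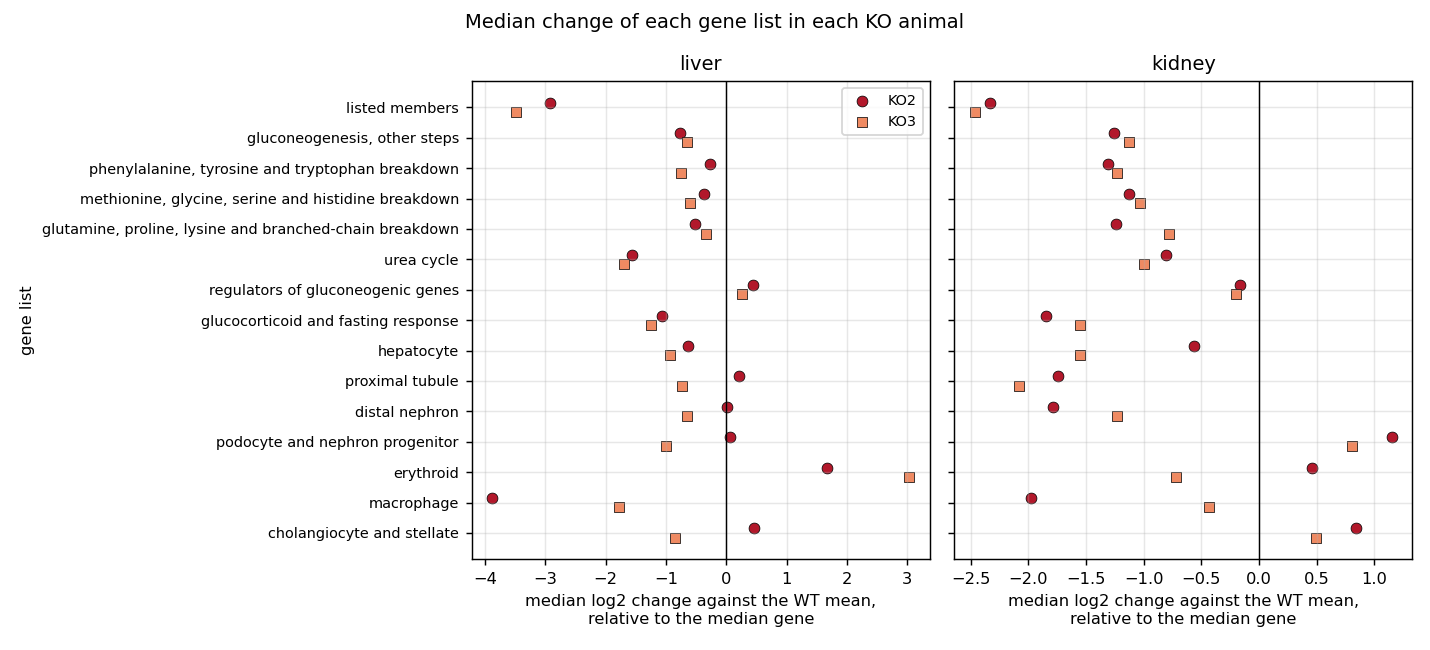
Median log2 change of each gene list in each KO animal against the WT mean, relative to the median gene, in liver (left) and kidney (right); points are KO2 and KO3. The listed enzymes lie below -2 in both KO animals and both tissues; in liver the macrophage markers are also below 0 and the erythroid markers above 0, and in kidney the proximal tubule and distal nephron markers are low.

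The difference between the KO change in liver and the KO change in kidney was tested within animals, from each animal's liver minus kidney value. SDS, TAT and GLS2 were below the level filter in kidney, so their kidney changes were not tested and their differences restate the liver change. Of the 9 enzymes 1 passed, SDS, where 0.479% of the 13780 genes tested passed as lower (difference -6.60 relative to the median gene, SE 0.57, adjusted p = 0.0128, limma). None of the 6 enzymes measured in both tissues passed by limma, while 4 of them had an unadjusted p under 0.05.

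GLS2 (-2.61, adjusted p = 0.054) and TAT (-3.42, adjusted p = 0.0629) did not pass in limma. Among the enzymes measured in both tissues, GNMT (-2.86, adjusted p = 0.0753) had a negative difference, a larger decrease in liver, that did not pass in limma. SHMT1 (-1.46, adjusted p = 0.116), GOT1 (-1.25, adjusted p = 0.192) and PCK1 (-1.15, adjusted p = 0.358) also had negative differences. HPD (1.57, adjusted p = 0.214, 95% interval from 0.35 to 2.80) and G6PC (1.36, adjusted p = 0.402, 95% interval from -0.25 to 2.97) had positive differences, a larger decrease in kidney, and did not pass in limma. A p that missed the threshold does not show that the enzymes changed alike in the 2 tissues.

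**Figure D3:**
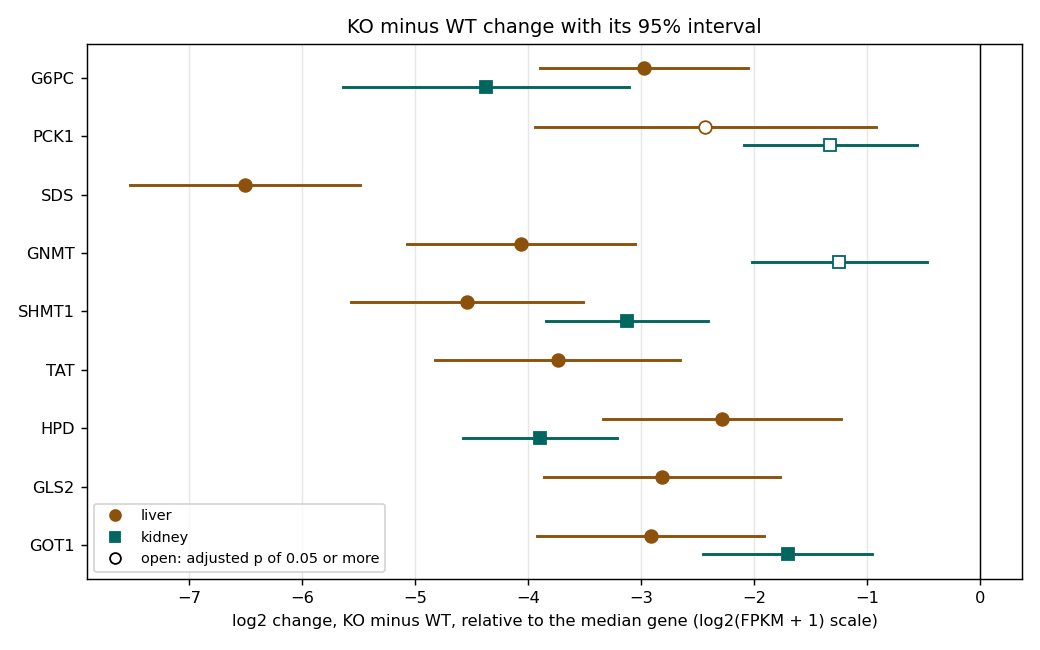
KO minus WT change of each enzyme in liver (circles) and kidney (squares) on the log2(FPKM + 1) scale, relative to the median gene, with its 95% interval; open symbols mark an adjusted p of 0.05 or more. SDS and SHMT1 have the largest falls in liver, G6PC and HPD in kidney, and SDS, TAT and GLS2 have no kidney value because they were below the level filter.

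Levels of the enzymes in the 2 glucose-making organs were compared within the same 4 animals, averaging the genotypes. Liver was higher than kidney for 6 of the 9, G6PC, SDS, TAT, HPD, GNMT and GLS2, where 10.2% of all genes tested were higher in liver. The SDS call rests on the WT animals, which averaged 110 FPKM in liver and 0.113 FPKM in kidney. In KO animals SDS was near 0 in liver and low in kidney. HPD averaged 34.4 FPKM in liver and 11.5 FPKM in kidney of KO animals, while WT animals averaged 183 FPKM in liver and 193 FPKM in kidney and their tissues overlapped, so its call averages genotypes with unlike values. The median gene was 0.66 lower in liver on the log2 scale, and with quantile normalisation the share of called genes that were higher in liver moved to 42.8%, against 14.8% without it. TAT differed most, by 6.27 relative to the median gene (SE 0.37, adjusted p = 1.03e-05, limma), with 235 FPKM in WT liver and 0.427 FPKM in WT kidney on average. FBP1, which is not counted among the 9, was higher in liver by 1.44 relative to the median gene (adjusted p = 0.0178, limma). In WT animals its liver and kidney values overlapped. PCK1, SHMT1 and GOT1 did not pass, with relative differences of 0.07, 0.25 and 0.92. Before subtraction PCK1 and SHMT1 were lower in liver (-0.59 and -0.41), so their direction turns with the scaling. The order of the tissue means was also not the same in the 2 genotypes. SHMT1 averaged 1.82 FPKM in liver and 5.42 FPKM in kidney of KO animals, but 72.8 FPKM in liver and 57.4 FPKM in kidney of WT animals. PCK1 averaged 60.1 FPKM in liver and 118 FPKM in kidney of KO animals, and 382 FPKM in liver and 317 FPKM in kidney of WT animals.

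In the WT animals the enzymes fell into patterns by tissue. G6PC averaged 274 ± 10.8 FPKM in liver and 170.2 ± 49.3 FPKM in kidney (SD, n = 2 each), and no more than 0.611 FPKM in any animal elsewhere. HPD likewise was a gene of kidney (193 ± 53.3 FPKM) and liver (183 ± 14.0 FPKM), 2 tissues whose WT values overlapped, and stayed at or below 0.328 FPKM in the other 5 tissues. TAT was confined to liver among the tissues sampled, with at most 0.731 FPKM in any animal of the other 6.

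PCK1 was high in liver and kidney with overlapping WT values (382 ± 307 and 317 ± 122 FPKM), and reached 4.72 FPKM at most elsewhere, in thymus of WT2. SDS was high in liver (110.1 ± 24.3 FPKM), with brain next (11 ± 7.96 FPKM) and thymus, muscle, lung, kidney and heart below 1 FPKM. GLS2 followed the same order at the top, with 38.2 ± 3.35 FPKM in WT liver and 4.14 ± 0.69 FPKM in WT brain, the other tissues of WT animals being at most 1.34 FPKM.

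SHMT1 ran from liver (72.8 ± 0.64 FPKM) to kidney (57.4 ± 17.1 FPKM), thymus (18.1 ± 1.19 FPKM) and brain (5.98 ± 2.37 FPKM), with no overlap between these neighbours in WT animals. GNMT was highest in liver (350 ± 125 FPKM), and next in heart (13.9 ± 7.86 FPKM), whose values overlapped those of kidney (10.9 ± 3.97 FPKM). GOT1 was the one enzyme above 3 FPKM in every animal of every tissue. Its WT mean was 135 ± 58.9 FPKM in muscle, 85.4 ± 20.2 FPKM in liver, 76.3 ± 6.93 FPKM in heart and 10 ± 0.61 FPKM in lung, the lowest.

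**Figure D4:**
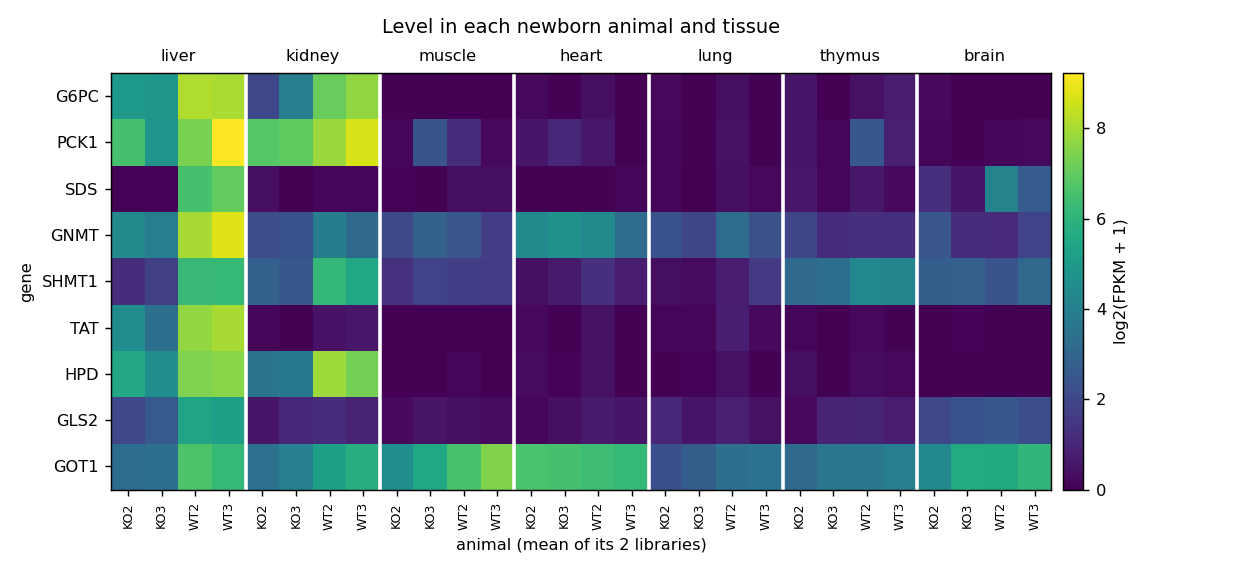
log2(FPKM + 1) of the 9 listed enzymes (rows) in each newborn animal and tissue (columns, the mean of 2 libraries; KO animals left of WT animals in each tissue). G6PC, PCK1 and HPD are bright in liver and kidney, TAT and SDS mainly in WT liver, SDS also in WT brain, and GOT1 in all tissues, brightest in WT muscle.

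Likeness across tissues was described over the 28 newborn values, 4 animals by 7 tissues, which share animals and tissues and are not independent. Among the enzymes, G6PC and HPD were the most alike (Pearson's r of log2(FPKM + 1) 0.99) and PCK1 and GOT1 the least (0.05). Outside the 9, the genes most like G6PC were ASPDH (0.99), AOC1 (0.98) and HNF4A (0.98). Those most like PCK1 included DNAJC22 (0.97) and SLC27A2 (0.97), and those most like GOT1 were UQCRFS1 (0.92), SDHA (0.91) and MDH2 (0.91).

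Outside liver and kidney, GOT1 fell in muscle, the only one of the 4 enzymes tested there to pass, where 1.58% of all genes passed as lower. GOT1 had 23.1 and 20.5 FPKM in KO2 muscle and 44.8 and 45.7 FPKM in KO3 muscle, against 90.8 and 96.5 FPKM in WT2 and 174 and 179.5 FPKM in WT3. KO3 differed from WT2 by about as much as animals of the same genotype differed from each other, and the groups did not overlap. Muscle GOT1 changed by -2.0 relative to the median gene (SE 0.47, adjusted p = 0.0207, limma). This call was lost without KO2, without WT3 and with quantile normalisation.

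In heart neither GNMT nor GOT1, the 2 enzymes tested, passed by limma or had an unadjusted p under 0.05, where 0.18% of all genes passed. Heart GOT1 had 97.4 FPKM in KO2 and 92.4 FPKM in KO3, against 81.2 FPKM in WT2 and 71.4 FPKM in WT3, so that KO hearts were the higher ones (relative change 0.37, 95% interval from -0.36 to 1.10). In lung 0 of 2 enzymes passed by limma, with none at an unadjusted p under 0.05, where 0% of genes passed. Lung GOT1 had 3.73 FPKM in KO2 and 5.67 FPKM in KO3, against 9.58 FPKM in WT2 and 10.4 FPKM in WT3.

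In thymus 0 of 4 enzymes passed by limma, where 0.00772% of genes passed, and SHMT1 and PCK1 had an unadjusted p under 0.05. Thymus SHMT1 had 7.96 FPKM in KO2 and 9.02 FPKM in KO3, against 19.0 FPKM in WT2 and 17.3 FPKM in WT3. The thymus groups did not overlap, and the relative change of SHMT1 was -0.81 (adjusted p = 0.70, limma).

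In brain 0 of 5 enzymes passed by limma, where 0% of genes passed, and SDS had an unadjusted p under 0.05. Brain SDS had 1.36 and 1.38 FPKM in KO2 and 0.469 and 0.370 FPKM in KO3, against 16.2 and 17.1 FPKM in WT2 and 5.19 and 5.60 FPKM in WT3. All KO libraries were below all WT libraries, and each genotype's animals differed by about the same factor. Its relative change was -2.33 (SE 0.57, adjusted p = 0.388, limma), the 18th lowest of 13392 genes. In brain, as in liver, SDS passed the level filter only through WT animals. Brain SDS passed in a fit of all 7 tissues with a shared spread and when unaveraged libraries were fitted as correlated within an animal.

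**Figure D5:**
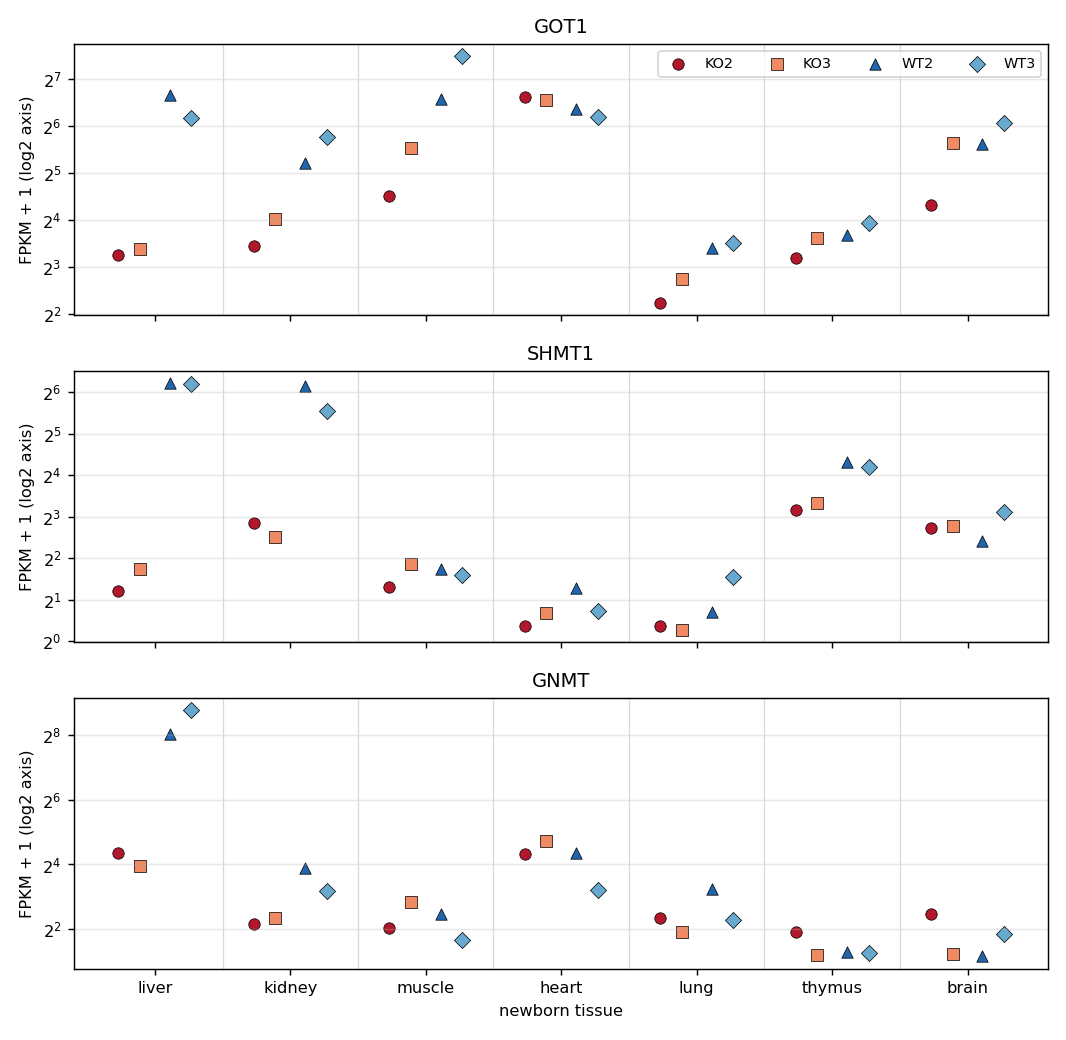
FPKM + 1 on a log2 axis for GOT1, SHMT1 and GNMT, the enzymes above the level filter in the most tissues, in the 7 newborn tissues; each point is an animal (mean of 2 libraries), KO animals left of WT animals. GOT1 is lower in both KO animals in liver, kidney, muscle, lung and thymus and higher in heart, SHMT1 is lower in KO liver, kidney and thymus and, at low levels, in heart and lung, and GNMT is far lower in KO liver and overlaps between genotypes in muscle, heart, lung, thymus and brain.

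Averaged over the 7 tissues of each animal, SDS (relative change -1.29, SE 0.19, adjusted p = 0.00836, limma) and SHMT1 (-1.36, SE 0.29, adjusted p = 0.049, limma) fell, 2 of 9, where 0.239% of all genes passed as lower. SDS was below 1 FPKM in every animal in 5 of the 7 tissues, the other 2 being liver and brain. In this average SDS passed the level filter only through WT animals. GOT1 (-1.14, adjusted p = 0.107) and G6PC (-1.01, adjusted p = 0.0936) did not pass in limma. With quantile normalisation neither SDS nor SHMT1 passed, and among all genes the share of calls that were higher moved to 71.4%, against 51.4% without it. Leaving out any 1 animal left between 1 and 4 enzymes past the threshold.

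The fetal libraries show how the enzymes stood in wild-type brain and muscle before birth. G6PC, PCK1, SDS, TAT and HPD were below 1 FPKM in all 8 fetal libraries. TAT was listed at 0 in each of them, and SDS in all but a month 4 muscle library, so SDS was listed at 0 in fetal brain at both months, beside 16.7 and 5.40 FPKM in the newborn WT brains. The newborn and fetal tables were deposited as separate tables, and this difference of level was not tested.

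In fetal muscle GOT1 rose, with 28.6 and 40.7 FPKM at month 4, against 13.6 and 10.6 FPKM at month 2. The months did not overlap, and the relative change was 1.27 (SE 0.22, adjusted p = 0.001, limma). It was 1 of 3 enzymes tested, where 22.3% of all genes passed as higher. In fetal brain 0 of 4 enzymes passed by limma, where 4.01% of genes passed. GOT1 in fetal brain had 25.1 and 31.9 FPKM at month 4, against 17.4 and 19.2 FPKM at month 2, with an unadjusted p under 0.05 and an adjusted p of 0.162 in limma. Where libraries are not separate fetuses, the fetal p-values rest on technical spread alone.

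Repeat libraries of an animal and tissue were close: for the enzymes with a mean of 5 FPKM or more the median difference between repeats was 2.98%, over 85 pairs. Summed FPKM over all genes lay between 333919 and 587030 in the newborn libraries.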

How the data were processed

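TRIzol RNA from frozen, ground tissue was made into TruSeq libraries, per the labels' protocols. HISAT 0.1.6, Cufflinks 2.0.2 and CASAVA are the tools in the submitters' processing notes, which state neither role nor order. Labels and headers name no genome build, annotation or strandedness (not given in the sources used here). The authors deposited FPKM values, in separate tables of 56 newborn and 8 fetal libraries. FPKM keeps no read depth, so the depth is unknown and no counting intervals are given.

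Titles name the animal and a last number, read as a repeat library; whether repeats are separate tissue pieces, and whether animals of a genotype are unrelated, is not stated. Here log2(FPKM + 1) was averaged over the 2 repeats of an animal and fitted for each comparison with limma 3.58.1 (R 4.3.3; lmFit, eBayes with trend), for genes averaging at least 1 FPKM in the compared libraries, at a Benjamini-Hochberg adjusted p of 0.05. The script was tested on simulated data. RefSeq gene names named 721 of 11294 LOC identifiers and were used for names alone.

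The members and gene lists were chosen with earlier results of these data known. Genes named beyond them are, per pathway list, up to 4 past the threshold in liver and in kidney by smallest adjusted p, and the 3 most correlated with G6PC, PCK1 and GOT1; some genes that these rules name are not reported here. Alternatives were the pseudocount (0.1), the filter (none, 5 FPKM), quantile normalisation, each animal left out, a replicate block, unaveraged libraries correlated within an animal, and 1 fit of all tissues.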

Additional observations from a re-analysis of the deposited data

Results flagged for a closer look

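SHMT1 had 1 library that stood apart in WT thymus. The highest of the 4 WT thymus libraries was at 20.6 FPKM (WT2), and the other 3 were at 17.2, 17.4 and 17.4 FPKM. It was 1 of 63 sets of 4 libraries of an enzyme in a tissue and genotype that were checked. The rule flags about 1 in 20 sets of 4 independent values. Repeat libraries of an animal are not independent, so the chance rate for these sets is not known.

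SDS passed the test of the liver change against the kidney change, but it was too low in kidney to be tested there, so the difference restates its liver change. The KO change in liver minus the KO change in kidney was -6.60 relative to the median gene (adjusted p = 0.0128, limma), with SDS near 0 in KO livers, high in WT livers and at most 0.265 FPKM in the kidneys of both genotypes.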

How the results depend on the processing

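With no filter on low levels, 0 enzymes passed in liver, kidney, muscle, the 7-tissue average and the liver against kidney change; the cause was not tested. With quantile normalisation 3 passed in liver, 0 in muscle, 0 in the average and 2 in fetal muscle. A pseudocount of 0.1 left 1 in the average, and a filter at 5 FPKM gave 3 in the liver against kidney change. In brain 1 passed with unaveraged libraries correlated within an animal and 1 in the fit of all tissues. With 1 animal or fetal library left out at a time, the count was 3 to 9 enzymes in liver, 3 to 5 in kidney, 0 to 1 in muscle, 0 to 1 in brain, 1 to 4 in the average and 1 to 2 in fetal muscle. Counts over all genes moved widely with the setting. They ranged over the alternatives from 0 (no filter) to 891 (fit of all tissues) in liver, against 134 as reported, from 0 (no filter) to 1621 (without KO3) against 806 in kidney, 0 to 386 against 281 in muscle, 0 to 290 against 22 in heart, 0 to 338 against 0 in lung, 0 to 831 against 1 in thymus, 0 to 2369 against 0 in brain, 0 to 1018 against 74 in the average, and 0 to 609 (replicate block) against 179 in the liver against kidney change. The range was 5820 to 9844 against 9564 for the level, 0 to 1377 against 526 in fetal brain and 1905 to 6756 against 4687 in fetal muscle.

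Animal numbers shared by KO and WT were checked as a pairing. Over all genes, same-numbered animals' deviations correlated between -0.10 and 0.09 in the tissues. A correlation over all genes cannot tell whether some genes follow such a pairing. With the replicate block 4 enzymes passed in the liver against kidney change, and 8 in liver and 4 in kidney as without it.

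Of the single-enzyme values under the alternatives, 553 kept their side, 47 lost and 21 gained the threshold and 10 turned in direction, none of which passed. With 1 animal left out these were, before subtraction, SHMT1 (-0.352 to 0.188) and GNMT (-0.0307 to 0.775) in muscle, GNMT (-0.0852 to 0.656) in thymus, SHMT1 (-0.368 to 0.336) and GNMT (-0.282 to 0.957) in brain, and the liver minus kidney level of GOT1 (-0.00325 to 0.514). With quantile normalisation they were SHMT1 in brain (0.215) and the liver minus kidney level of SHMT1 (0.0887). With 2 animals a genotype, limits are set by animal number, and the FPKM files give no depth.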

Other observations

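Of 10 genes of the glucocorticoid and fasting response tested in muscle, 5 fell in KO animals and none rose, where 1.58% of all genes passed as lower, and the median was -2.08 before subtraction. PDK4, which spares pyruvate for glucose making, had 3.98 FPKM in KO2 and 35.7 FPKM in KO3, against 634 FPKM in WT2 and 729.9 FPKM in WT3 (relative change -5.66, SE 0.59, adjusted p = 1.45e-06, limma). FKBP5, a glucocorticoid-induced gene, changed by -4.01, KLF9 by -2.90, DUSP1 by -2.32 and ZBTB16 by -2.29, each past the threshold in limma. KO2 was the lower KO animal for PDK4 and KLF9. Of 16 regulators of gluconeogenic genes tested in muscle, 2 fell and none rose, with a median of -0.26 before subtraction. FOXO1 of that list, a transcription factor of the fasting response, had 3.55 FPKM in KO2 and 9.42 FPKM in KO3 muscle, against 40.1 FPKM in WT2 and 50.03 FPKM in WT3 (relative change -2.73, adjusted p = 0.00346, limma). These muscle genes were named after their values were seen. Cell markers also moved in muscle: of 7 macrophage markers tested 3 fell (C1QA, C1QB and C1QC), with a median of -1.75 before subtraction, HBB changed by -3.29 and HBZ by 3.80 relative to the median gene, and their part in these values was not tested. Over all genes, muscle calls numbered 281, against 0 without a level filter and 14 with quantile normalisation.

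KAT2A, the acetyltransferase through which SIRT6 is reported to act on PGC-1alpha in mice, was also looked at after its values were seen. It had 34 FPKM in KO2 and 15.5 FPKM in KO3 liver, against 9.24 FPKM in WT2 and 16 FPKM in WT3, and the groups overlapped (adjusted p = 0.477, limma). In kidney KAT2A had 44 FPKM in KO2 and 32.6 FPKM in KO3, against 13.8 FPKM in WT2 and 19.9 FPKM in WT3, without overlap but short of the threshold (relative change 1.18, SE 0.31, adjusted p = 0.0676, limma).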
